A study of Rattus norvegicus with 10 samples.

Results

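The genes described are those of voltage-gated, inwardly rectifying and leak potassium channels, their accessory subunits and the HCN pacemaker channels, in the paraventricular nucleus of the rat hypothalamus. Of 50 genes chosen by name, 49 had a probe set whose annotation gave that symbol alone, among 14217 genes with such a probe set on the array. Kcnf1 had none and was not analysed here. Each gene is represented by its probe set with the highest mean signal over all arrays, a choice that takes no account of the groups.

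The tissue came from male Sprague Dawley rats aged 10 to 12 weeks. The dehydrated group consisted of 5 pools from rats dehydrated for 3 days and the control group of 5 pools from control rats. Each pool held tissue from 5 animals and was hybridised to 1 Affymetrix Rat Genome 230 2.0 array, and the pools were made from separate animals, so 50 rats stand behind the 10 arrays. The labels name no genotype or agent other than dehydration. All sample labels name the paraventricular nucleus, whereas the series' design text names the supraoptic nucleus, and the sample labels were followed.

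Potassium channels set how readily a neuron fires and how its spikes are shaped. Voltage-gated channels open on depolarisation and end the action potential, inward rectifiers and leak channels hold the resting potential, and HCN channels open on hyperpolarisation and carry a depolarising current. Magnocellular neurons, which make vasopressin and oxytocin, change their firing pattern when an animal lacks water, and a transient potassium current of the Kv4 type and a sustained current are known features of these cells. The comparison asks which transcripts of this nucleus differ after dehydration, and here whether the channel genes are among them.

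The arrays were even in level. Array medians ran from 36.4 to 39.1, and pairwise correlations of the log2 signals from 0.961 to 0.986. One array, control replicate 5, was distant from the rest: its score on the first principal component was 37.2, with scores of -14.4 to 3.69 elsewhere, and it had the lowest array weight (0.385) and the lowest ratio of 3 prime to 5 prime signal for Gapdh and beta-actin. Dehydrated replicate 2 lay at 5.87 on the second component, on the side of control replicates 1 to 4 (9.46 to 17.9) and away from the 4 further dehydrated arrays (-19.9 to -5.88). Control replicate 5 lay at -12.7 on the second component, within the range of those 4 dehydrated arrays. The log2 ratio of 3 prime to 5 prime signal averaged 1.58 ± 0.22 on dehydrated and 1.41 ± 0.21 on control arrays for Gapdh (SD, n = 5 each, exact permutation p = 0.254, two-sided, smallest possible p 0.00794). Of 7 listed markers of magnocellular and paraventricular neurons, Avp averaged 4957 in dehydrated and 3531 in control pools (adjusted p = 0.0504 in limma). Oxt averaged 4861 in dehydrated and 4090 in control pools, and the transcription factor gene Sim1 79.2 in dehydrated and 62.1 in control pools. Crh averaged 320 in dehydrated and 282 in control pools, Trh 651 and 615, and Scg2 2296 and 2258, in the same order. The transcription factor gene Otp, at 14.2 in dehydrated and 5.66 in control pools, lay under the signal limit for testing.

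No potassium channel or HCN gene passed the test for a difference between dehydrated and control pools. Of the 49 genes, 35 reached the mean signal of 24.1 required for testing, and 0 of these 35 had an adjusted p under 0.05 in limma, where 0.58% of all 18629 probe sets tested did (0.397% higher and 0.183% lower in dehydrated pools). The adjusted p ran from 0.107 to 0.975. At an unadjusted p under 0.05 there were 7 genes (20.0%), against a background of 12.7%. Of these 7, 5 were lower in dehydrated pools (Kcnj6, Kcnt1, Kcnc1, Kcna2 and Kcnab1; background for lower 6.01%) and 2 were higher (Kcnip4 and Kcnip1; background for higher 6.7%). With 35 genes these shares differ from the background by a few genes, and no test of the list was made.

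Differences of the brightest probe sets were small. Their log2 differences, dehydrated minus control on the scale of log2(signal + 3.72), ran from -0.47 for Kcnt1 to 0.25 for Kcnj3, so none of these reached 1.5-fold. A second probe set of Kcnq5 did, at a fold of 2.22 (adjusted p = 0.130 in limma). The median of the brightest probe sets was -0.05, with 13 genes positive and 22 negative. All tested probe sets had a median of -0.0048 with 9086 positive and 9543 negative. The median size of the difference, sign aside, was 0.10 for the channel genes and 0.10 for all tested probe sets. The median within-group SD on the log2 scale was 0.19 for the channel genes and 0.18 for all tested probe sets.

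The precision bounds what could have been called. Standard errors of the log2 differences ran from 0.07 to 0.24, and at those errors a gene needed a difference of 0.30 to 1.11, with a median of 0.51, to pass at the level of the last probe set called. The 95% intervals of the brightest probe sets reached at most from -0.80 (Kcnt1, lower bound) to 0.76 (Kcnj3, upper bound). A gene that missed the threshold is therefore not shown to be equal in the groups. Its interval limits the size for that probe set only, as a second tested probe set of Kcnq5 had an interval of 0.47 to 1.82.

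**Figure D1:**
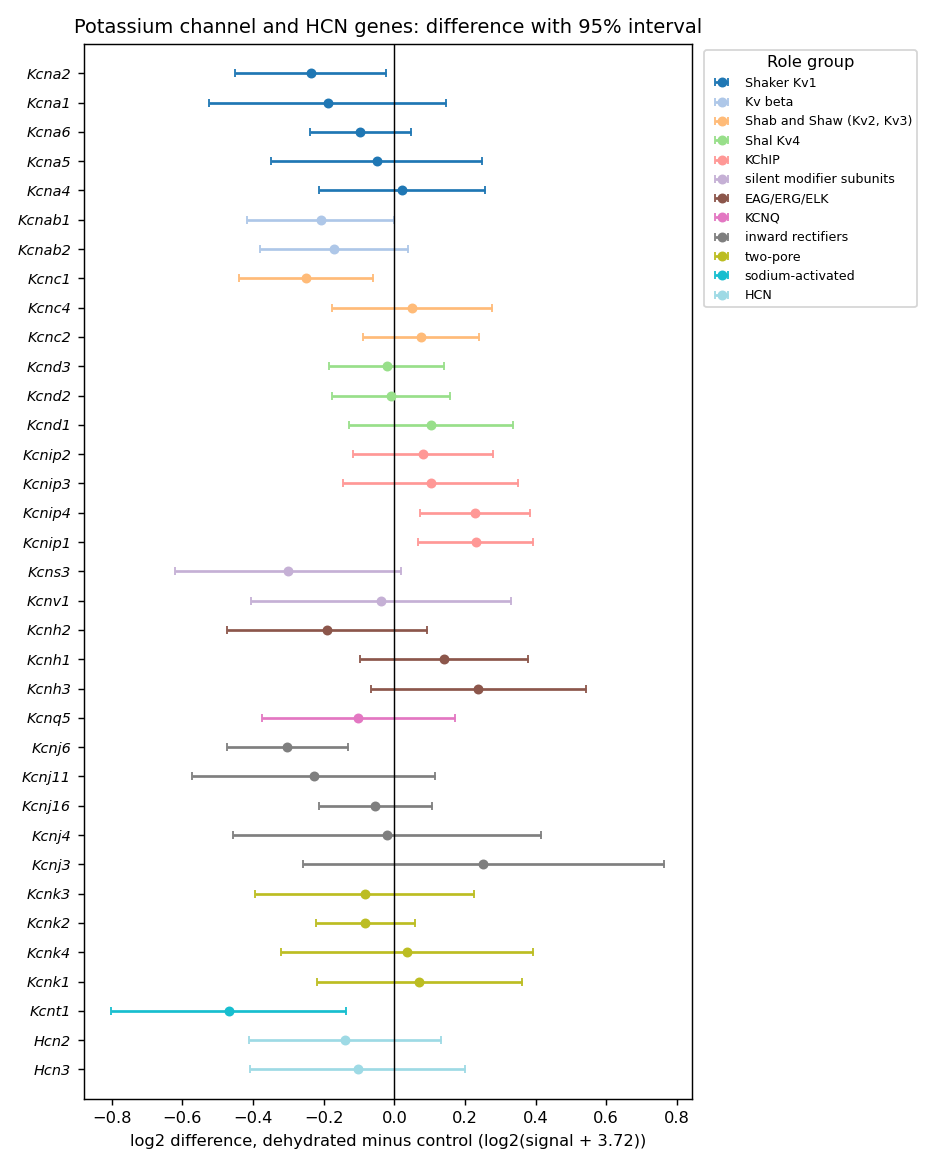
Log2 difference, dehydrated minus control, of the 35 tested genes (x axis; one gene per row, coloured by role group), with 95% intervals from the limma fit as bars. Intervals of Kcna2, Kcnab1, Kcnc1, Kcnj6 and Kcnt1 lie below 0 and those of Kcnip4 and Kcnip1 above it, before adjustment over all probe sets, and the 4 KChIP genes are all right of 0.

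Among the pore-forming Kv1 subunits of the Shaker family, which open near threshold and limit repetitive firing, 5 of 6 genes were tested, 0 passed and 4 were negative (median log2 difference -0.10). Kcna2, which encodes an axonal Kv1 subunit, had signals of 218.5, 315.9, 238.4, 293.1 and 306.0 in dehydrated pools and 289.8, 305.9, 305.1, 358.8 and 349.0 in control pools. Dehydrated replicates 1 and 3 lay under all controls, while replicates 2, 4 and 5 lay within the control range. The log2 difference was -0.24 ± 0.10 (standard error, adjusted p = 0.345). Kcna6 had 234.8, 261.1, 237.4, 257.9 and 228.1 in dehydrated pools and 267.0, 255.0, 267.2, 245.6 and 268.5 in control pools, a log2 difference of -0.10 ± 0.07 (adjusted p = 0.578). Its groups overlapped in the range of 245.6 to 261.1. Kcna1, the subunit mutated in human episodic ataxia, averaged 89.3 ± 16.5 in dehydrated and 104 ± 27.5 in control pools (SD, n = 5 each), and differed by -0.19 on the log2 scale. Kcna5 differed by -0.05 and Kcna4, a fast-inactivating subunit, by 0.02. Kcna4 varied little in dehydrated pools, with 71.8 ± 1.55 against 71.4 ± 10.6 in control pools. Kcna3 had a mean signal of 16.9 and was not tested.

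The Kv beta subunits are cytoplasmic partners that bind Kv1 channels and affect their inactivation and surface number. Of 3 genes 2 were tested, both negative, and 0 passed. Kcnab1 had 91.5, 105.3, 90.0, 99.2 and 80.9 in dehydrated pools and 126.5, 101.5, 112.5, 102.8 and 99.3 in control pools. Dehydrated replicates 1, 3, 4 and 5 lay under all 5 controls, and only replicate 2 overlapped them. The log2 difference was -0.21 ± 0.10 (adjusted p = 0.393). Kcnab2 had 281.3, 253.9, 205.7, 278.4 and 291.7 in dehydrated pools and 257.3, 288.2, 292.3, 284.3 and 353.4 in control pools, with a log2 difference of -0.17 ± 0.10 (adjusted p = 0.487). Its groups overlapped, with dehydrated replicate 3 lowest and control replicate 5 highest of all 10. The difference was -0.09 without the first of these pools and -0.11 without the second. A second probe set differed in the same direction for both genes, by -0.13 for Kcnab1 and -0.08 for Kcnab2. Kcnab3 had a mean signal of 15.8 and was not tested.

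Kv3 channels of the Shaw family repolarise the spike quickly and let neurons fire at high rates. Kcnc1 had signals of 513.9, 401.1, 385.2, 499.2 and 546.9 in dehydrated pools and 519.3, 532.6, 552.3, 571.2 and 594.7 in control pools. Dehydrated replicates 1 to 4 lay under all 5 controls and replicate 5 within them. The log2 difference was -0.25 ± 0.09, a fold of 0.841 (adjusted p = 0.256). Its close relative Kcnc2 had 560.8, 606.4, 513.4, 582.4 and 541.4 in dehydrated pools and 571.6, 570.8, 506.5, 578.4 and 441.5 in control pools, a log2 difference of 0.08 ± 0.08 (adjusted p = 0.723). The groups of Kcnc2 overlapped between 513.4 and 578.4, with control replicate 5 lowest. Kcnc4 differed by 0.05 ± 0.11 (adjusted p = 0.880). Whether Kcnc1 and Kcnc2 differ from each other in their response was not tested. The Shab family member Kcnb2, a delayed rectifier, had a mean signal of 4.11 and was not tested.

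Kv4 channels of the Shal family carry the transient A-type current that delays the next spike, and KChIP proteins are their calcium-binding partners, which raise their surface number and alter their gating. Of the 3 Kv4 genes 0 passed, with 1 positive and 2 negative for the brightest probe sets (median log2 difference -0.0091), whereas all 3 were positive when the probe sets of each gene were averaged (median 0.13). Kcnd2 had 444.9, 383.0, 440.8, 415.1 and 445.8 in dehydrated pools and 403.8, 454.1, 447.0, 484.4 and 361.4 in control pools, a log2 difference of -0.01 ± 0.08 with a 95% interval of -0.18 to 0.16 (adjusted p = 0.972). The dehydrated values all lay inside the control range. Kcnd3 averaged 231 ± 16.4 in dehydrated and 235 ± 19.2 in control pools (log2 -0.02 ± 0.08, interval -0.18 to 0.14, adjusted p = 0.932), and its other tested probe sets differed by 0.14 ± 0.11 and 0.41 ± 0.25 (adjusted p = 0.646 and 0.501). Kcnd1 averaged 85.6 ± 12.0 in dehydrated and 78.9 ± 5.49 in control pools (log2 0.10 ± 0.11, adjusted p = 0.734), with dehydrated replicate 2 the lowest of all 10 pools at 65.1.

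All 4 KChIP genes were positive, with a median log2 difference of 0.17, and 0 of them passed. Of all tested probe sets 48.8% were positive. The positive sign of each KChIP gene was kept under all 21 other settings tried, which reuse the same arrays. Filters and variance models leave the difference of a probe set unchanged, so its sign could not turn under those. Kcnip4 had 571.9, 555.6, 482.8, 530.0 and 519.2 in dehydrated pools and 510.9, 461.9, 469.8, 439.7 and 390.4 in control pools. Dehydrated replicates 1, 2, 4 and 5 lay over all controls, and replicate 3 lay under control replicate 1. The log2 difference was 0.23 ± 0.07, a fold of 1.17 (adjusted p = 0.205). Kcnip1 had 413.0, 398.5, 376.9, 413.1 and 429.3 in dehydrated pools and 372.2, 341.1, 298.4, 326.7 and 397.3 in control pools, where only dehydrated replicate 3 lay under the highest control, replicate 5. Its log2 difference was 0.23 ± 0.08, likewise a fold of 1.17 (adjusted p = 0.217). Without control replicate 5 and dehydrated replicate 2 together the adjusted p of Kcnip1 was 0.0686, the lowest of any channel gene under any setting tried. Kcnip2 averaged 139 ± 13.1 in dehydrated and 131 ± 13.7 in control pools (log2 0.08). Kcnip3, also known as the transcriptional repressor DREAM, averaged 118 ± 18.5 in dehydrated and 110 ± 14.1 in control pools (log2 0.10). Neither gene's groups separated, and their adjusted p were 0.762 for Kcnip2 and 0.757 for Kcnip3.

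Silent modifier subunits form no channel alone and change the properties of Kv2 channels when they join them. Of 4 genes on the array 2 were tested, both negative, and 0 passed. Kcns3 had 36.2, 22.7, 33.3, 32.0 and 34.2 in dehydrated pools and 35.5, 43.1, 42.0, 46.0 and 32.2 in control pools, a log2 difference of -0.30 ± 0.15 (adjusted p = 0.421). Its groups overlapped between 32.2 and 36.2, and dehydrated replicate 2 was the lowest of all 10, without which the difference was -0.20 (adjusted p = 0.556). Kcnv1 differed by -0.04 ± 0.17. Kcns1, with a mean signal of 14.7, and Kcns2, with 5.38, were not tested.

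The EAG, ERG and ELK channels of the Kcnh family and the Kcnq channels of the M-current act below spike threshold and hold back firing. Of the 5 Kcnh genes 3 were tested and 0 passed. Kcnh3 had 108.4, 58.9, 65.5, 69.5 and 75.3 in dehydrated pools and 67.3, 64.5, 70.7, 56.6 and 52.9 in control pools, a log2 difference of 0.24 ± 0.14 (adjusted p = 0.508). The high value of dehydrated replicate 1 stood over 9 other values of 52.9 to 75.3, and without it the difference was 0.11 (adjusted p = 0.771). Kcnh2, the ERG channel gene of the cardiac repolarising current, had 46.3, 51.9, 52.6, 72.2 and 48.1 in dehydrated pools and 68.4, 51.6, 58.3, 59.5 and 72.8 in control pools, a log2 difference of -0.19 ± 0.13 (adjusted p = 0.577). Its dehydrated values lay at the low end apart from replicate 4, without which the difference was -0.29 (adjusted p = 0.411). Kcnh1 differed by 0.14 ± 0.11 (adjusted p = 0.629). Kcnq5 had 80.7, 79.3, 72.9, 74.6 and 96.7 in dehydrated pools and 85.2, 99.0, 94.0, 99.8 and 61.3 in control pools, a log2 difference of -0.10 ± 0.13 (adjusted p = 0.785). Control replicate 5 was the lowest of all 10 for Kcnq5, and without it the difference was -0.22 (adjusted p = 0.335). A second tested probe set of Kcnq5 went the other way, at 1.15 ± 0.32 (adjusted p = 0.130). Kcnh5, Kcnh7 and Kcnq3 had mean signals of 5.75, 12.1 and 23.0 and were not tested.

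Inward rectifiers pass potassium near rest. GIRK channels among them are opened by G proteins below inhibitory receptors, and KATP channels sense the energy state of the cell. Kcnj6, which encodes a GIRK subunit, had the smallest p of all tested channel genes and was the only tested one whose groups did not overlap, where 3.36% of all tested probe sets had such groups, 1.42% with the dehydrated pools lower. It had 105.8, 98.6, 116.1, 113.0 and 116.0 in dehydrated pools and 144.8, 133.3, 130.3, 136.5 and 136.3 in control pools. Every dehydrated value lay under every control value. The log2 difference was -0.30 ± 0.08, a fold of 0.811 with a 95% interval of -0.47 to -0.13 on the log2 scale (adjusted p = 0.107). A second tested probe set of Kcnj6, dimmer at a mean of 32.5, averaged 34.0 ± 13.2 in dehydrated and 30.9 ± 8.73 in control pools, a log2 difference of 0.10 ± 0.23 (adjusted p = 0.893). Its other 2 probe sets lay under the signal limit and were not tested. Fitted without the filter, these differed by -0.18 and -0.22, in the direction of the brightest.

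The other inward rectifiers were less even. Kcnj11, the pore of the neuronal KATP channel, averaged 79.3 ± 9.39 in dehydrated and 96.3 ± 27.7 in control pools (log2 -0.23 ± 0.16, adjusted p = 0.585). Its control signals were 63.4 and 71.5 in replicates 3 and 4, apart from 103.4 to 126.5 in replicates 1, 2 and 5. Kcnj16, found in glia with Kcnj10, had 226.6, 257.1, 275.3, 232.1 and 261.3 in dehydrated pools and 259.0, 232.8, 281.5, 262.3 and 263.6 in control pools, a log2 difference of -0.05 ± 0.08 (adjusted p = 0.811). Its groups overlapped over nearly all of their range. Kcnj3, the GIRK partner of Kcnj6, averaged 26.2 ± 6.29 in dehydrated and 22.5 ± 11.3 in control pools and had the widest error of all (log2 0.25 ± 0.24, adjusted p = 0.704). Kcnj4 differed by -0.02 ± 0.21. Kcnj2, Kcnj8, Kcnj9 and Kcnj10 had mean signals of 3.77 to 13.8 and were not tested.

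K2P channels carry the background leak that sets the resting potential. Of 5 genes 4 were tested and 0 passed. Kcnk2, a mechanically and thermally sensitive member, had 206.8, 214.8, 211.4, 199.4 and 211.7 in dehydrated pools and 216.3, 223.5, 230.8, 207.4 and 228.5 in control pools. Its values varied least of all 35 genes within the groups (SD 0.05 on the log2 scale), and its log2 difference was -0.08 ± 0.07 with an interval of -0.22 to 0.06 (adjusted p = 0.635). Only dehydrated replicates 2, 3 and 5 lay within the control range, the other two under it. Kcnk3, an acid-sensitive leak channel, differed by -0.08 ± 0.15, Kcnk1 by 0.07 ± 0.14 and Kcnk4 by 0.04 ± 0.17. Kcnk9, with a mean signal of 15.9, was not tested.

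Kcnt1 encodes a channel opened by intracellular sodium. It had signals of 67.6, 77.1, 98.8, 94.7 and 63.2 in dehydrated pools and 88.5, 89.5, 151.9, 133.4 and 104.1 in control pools. Dehydrated replicates 1, 2 and 5 lay under all controls, while replicates 3 and 4 overlapped control replicates 1 and 2. The log2 difference of -0.47 ± 0.16 was the largest in size among the 35 genes, a fold of 0.722 (adjusted p = 0.218). Its other 2 probe sets differed by -0.16 ± 0.12 and 0.07 ± 0.15.

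HCN channels carry the pacemaker current. Hcn2 had 100.7, 84.9, 68.3, 70.8 and 102.1 in dehydrated pools and 105.2, 86.3, 99.5, 76.1 and 101.9 in control pools, a log2 difference of -0.14 ± 0.13 (adjusted p = 0.689). Its groups overlapped, with dehydrated replicates 3 and 4 lowest. Hcn3 averaged 41.1 ± 6.11 in dehydrated and 44.5 ± 7.13 in control pools (log2 -0.10, adjusted p = 0.805). Hcn4 was near the bottom of the scale with a mean signal of 1.61 and was not tested.

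**Figure D2:**
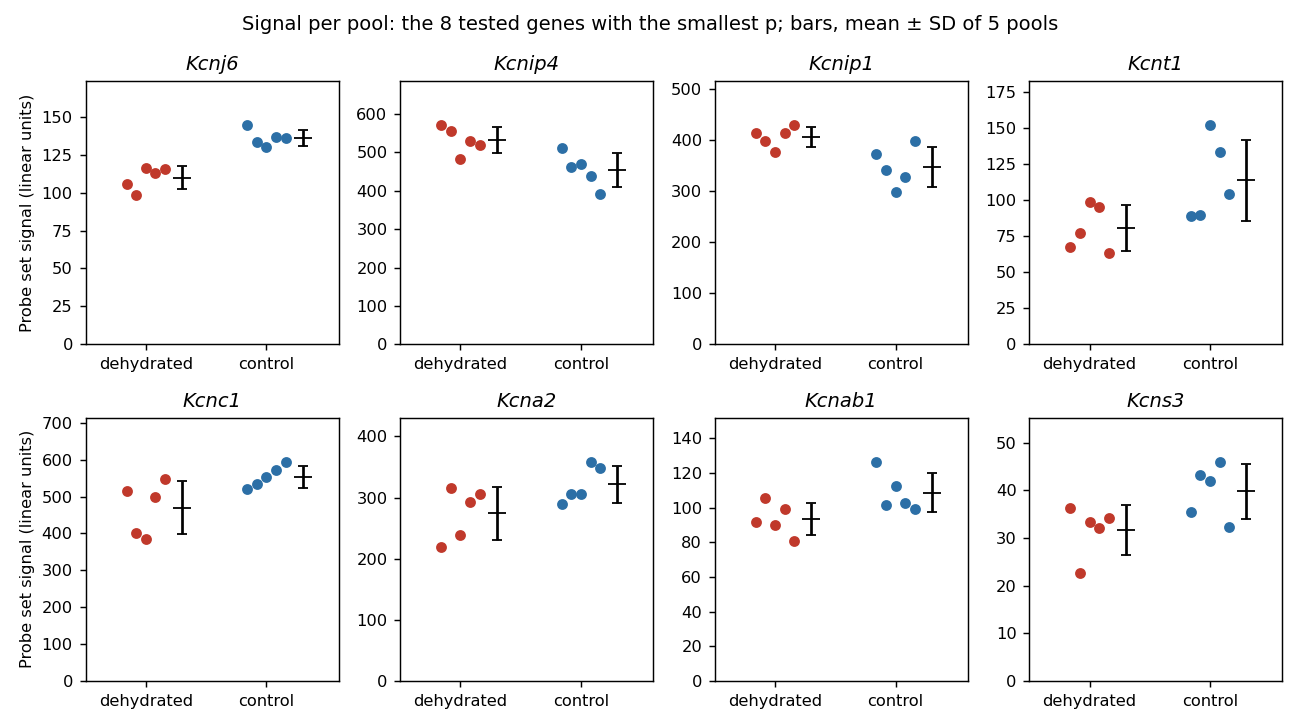
Probe set signal (y axis, linear units from 0) in each of the 5 dehydrated (red, left) and 5 control (blue, right) pools for the 8 tested genes with the smallest p, with bars for mean ± SD. Kcnj6 is the only gene whose groups do not overlap, at 98.6 to 116.1 in dehydrated and 130.3 to 144.8 in control pools, and Kcnip4 and Kcnip1 are the genes with the higher dehydrated mean.

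The 14 genes under the signal limit had means of 1.61 to 23.0, where background makes up an unknown part of the signal. Fitted without the filter, 0 of these 14 had an unadjusted p under 0.05, and the smallest was 0.176, for the vascular KATP subunit gene Kcnj8. Kcnj8 had 3.4, 19.1, 18.6, 11.4 and 2.8 in dehydrated pools and 11.3, 14.5, 10.6, 18.0 and 21.4 in control pools. Its dehydrated values spread more widely than the controls and overlapped them.

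Probe sets of the same gene often differed in sign, and whether they differed beyond their errors was not tested. The 49 genes had 88 probe sets, and 22 genes had more than 1. Of the 39 probe sets that were not the brightest of their gene, 16 were tested and 0 passed. Of the 16, 4 had an unadjusted p under 0.05, against a background of 12.7% of all tested probe sets. These 4, of Kcnq5, Kcnd2, Kcnc4 and Kcnip4, were all higher in dehydrated pools (background for higher 6.7%), and no test of the 16 as a set was made. The sign of the 16 matched that of the brightest probe set in 8 cases and opposed it in 8. The largest difference of any channel probe set was the second one of Kcnq5, which averaged 42.7 ± 16.7 in dehydrated and 18.5 ± 10.6 in control pools (log2 1.15 ± 0.32, adjusted p = 0.130), where the brightest probe set of Kcnq5 differed by -0.10. A second probe set of Kcnd2 averaged 246 ± 32.5 in dehydrated and 202 ± 12.9 in control pools (log2 0.27 ± 0.09, adjusted p = 0.230), against -0.01 for the brightest, and a second one of Kcnc4 differed by 0.48 ± 0.19 (adjusted p = 0.306), against 0.05. For Kcnip4 both tested probe sets were positive, the second at 61.2 ± 12.1 in dehydrated and 48.3 ± 4.11 in control pools (log2 0.30 ± 0.14, adjusted p = 0.388). The second tested probe set of Kcnip1 differed by 0.08 ± 0.20. Which transcript forms these probe sets match is not given in the sources used here.

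**Figure D3:**
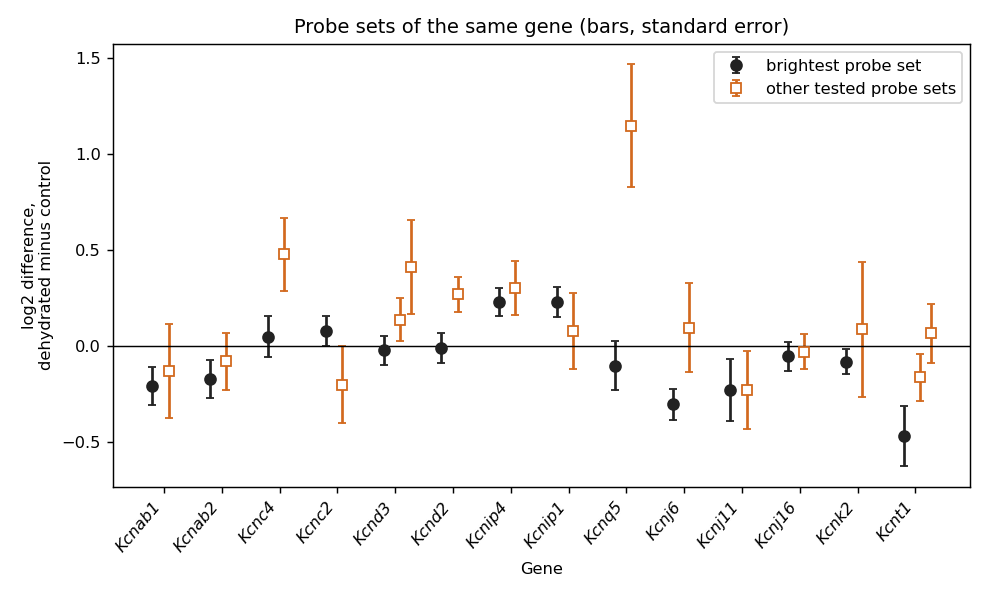
Log2 difference, dehydrated minus control (y axis), of the brightest probe set (black circles) and the other tested probe sets (open squares) for the 14 genes with more than 1 tested probe set, with standard errors as bars. The second probe sets of Kcnq5 (1.15), Kcnc4 (0.48) and Kcnd2 (0.27) lie over brightest probe sets near 0, and both Kcnip4 probe sets lie over 0.

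Groups did not overlap for 2.86% of the tested channel genes, near the 3.36% of all tested probe sets. In the plot of deviations by pool, Kcnj6 alone had one sign in all dehydrated and the other in all control pools, whereas dim genes such as Kcnj3 and Kcnj4 varied as much within a group as between groups, with within-group SDs of 0.44 and 0.39 on the log2 scale.

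**Figure D4:**
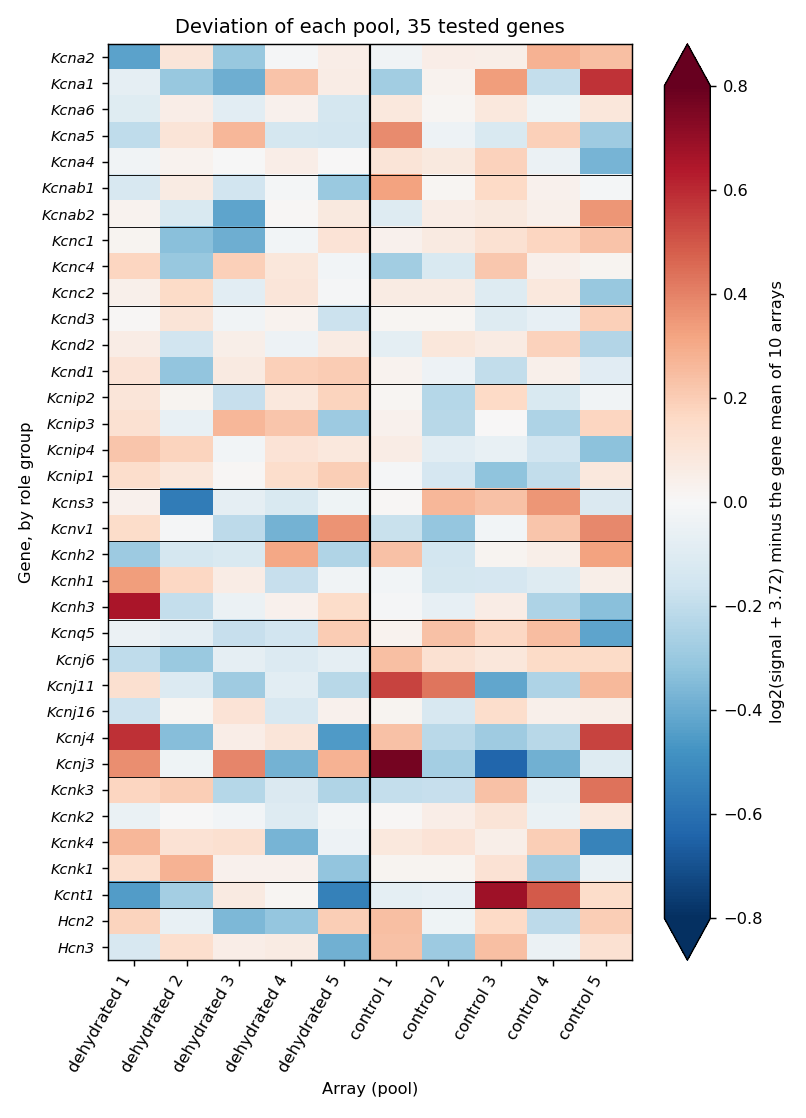
Deviation of each pool (columns, dehydrated left of the black line and control right of it) from the mean of 10 arrays for the 35 tested genes (rows, by role group), on the log2(signal + 3.72) scale with colours limited to ±0.8. Kcnj6 is below its mean in all dehydrated and above it in all control pools, and most other rows mix both colours within each group.

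Other potassium channel genes and partners, a list of 47 genes, likewise held none that passed. Of these, 31 were on the array, 13 were tested and 0 passed, with 6 positive and 7 negative and a median log2 difference of -0.04. Abcc9, the sulfonylurea receptor that joins Kcnj8 in vascular KATP channels, averaged 43.5 ± 5.20 in dehydrated and 61.2 ± 7.85 in control pools (log2 -0.46 ± 0.12, adjusted p = 0.107). Its groups did not overlap, as in 1.42% of all tested probe sets in this direction. Abcc9 also stands on the list of pericyte and muscle markers. The small accessory subunit gene Kcne4 differed by 0.42 ± 0.19 (adjusted p = 0.364). The Kv4 partners Dpp6 and Dpp10, which speed Kv4 gating, differed by 0.02 ± 0.07 and 0.14 ± 0.11 (adjusted p = 0.943 and 0.648). The axonal Kv1 organiser Cntnap2 differed by -0.07 ± 0.07.

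Of the markers of other cells and neighbouring tissue, 1 passed in the same pools, where 0.58% of all tested probe sets did (0.183% lower in dehydrated pools). All 9 measured oligodendrocyte markers were negative, and Ermn was the one that passed, at a log2 difference of -0.63 (adjusted p = 0.0255). The summed oligodendrocyte signal was 6809 to 7036 in dehydrated and 7327 to 8853 in control pools. Groups did not overlap for Ermn, Mobp and Cldn11, as in 1.42% of all tested probe sets in this direction. No marker on any of these lists had a mean of 0. Of 5 tested markers of neighbouring hypothalamus and thalamus 4 were negative and 0 passed, with a median log2 difference of -0.50. The lateral hypothalamic peptide gene Hcrt averaged 661 ± 377 in dehydrated and 1586 ± 875 in control pools (log2 -1.28 ± 0.44, adjusted p = 0.233). Hdc differed by -0.67 ± 0.19 (adjusted p = 0.135), with no overlap of the groups, as in 1.42% of all tested probe sets in this direction. Nkx2-1 differed by -0.50 ± 0.16 (adjusted p = 0.205). Pmch, the brightest of these markers, differed by 0.02 ± 0.11 and made up most of their summed signal over all 7 on the array, which was 3615 to 6431 in dehydrated and 4268 to 7330 in control pools. Of 8 astrocyte markers 6 were negative and 0 passed (11227 to 12599 in dehydrated and 11631 to 13121 in control pools), and of 3 tested microglial markers 3 were negative and 0 passed (summed over all 6 on the array, 435.1 to 481.3 in dehydrated and 487.5 to 542.8 in control pools). Of 6 tested pericyte and muscle markers, Abcc9 among them, 4 were negative and 0 passed (211.1 to 309.6 in dehydrated and 235.7 to 288.4 in control pools). Endothelial markers had 4 of 5 positive and 0 passed (915.7 to 995.3 in dehydrated and 738.9 to 1002 in control pools). Among them Slco1a4 was higher in dehydrated pools with no overlap of the groups, as in 361 of all 18629 tested probe sets in this direction. Of the 6 tested markers of magnocellular and paraventricular neurons 6 were positive and 0 passed (summed with the untested Otp, 11329 to 14607 in dehydrated and 9694 to 11978 in control pools). On this list only the untested, dim Otp had groups that did not overlap. The part of all these cell types in the differences of the channel genes was not tested. In such tissue pools fewer cells of a type and less RNA per cell cannot be told apart.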

How the data were processed

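RNA of 10 pools was hybridised to 1 array each. The deposited values are linear probe set intensities, which the authors made with GCOS 1.2 (named in the submitters' processing notes). How signal, background and detection were computed is not given in the sources used here. Each array had a trimmed mean of 100, a sign of scaling by the authors to a common level. Probe signals compress at the top and hold background at the bottom, and the number of arrays limits the precision. Signals of different probe sets do not rank genes by abundance.

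Of 31099 probe sets 57 controls were left out, and 20826 of the rest had 1 gene symbol in the platform annotation. Signals were analysed as log2(signal + 3.72), the pseudocount being 0.1 of the median of the array medians, which understates differences of dim probe sets. Probe sets with a mean signal over 10 arrays at or above the 40th percentile (24.1) were tested: 18629. Groups, taken from the sample labels, were compared with lmFit and eBayes (trend) of limma 3.58.1 (R 4.3.3). Tests were two-sided, p-values were adjusted by Benjamini-Hochberg over every tested probe set, and the threshold was 0.05. The adjusted p in the text are from this fit unless an exact permutation test is named. The procedure was tested on simulated data with independent noise for each probe set. Those data held no outlying array and no effect shared by an array, so the test does not bear on such features. Replicates are numbered in accession order and pair nothing across groups. The labels used here name no hybridisation or other batch, so none was tested. The title number of control replicate 5 stands apart from those of the other arrays, and what these numbers stand for was not established.

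Values in every pool are given for the 12 tested genes with the smallest p, the 8 with the highest mean, any whose groups did not overlap and the brightest of each role group; Kcnj8 was added after its values were seen. The genes and lists were chosen with earlier results of these data known. Alternatives were other scalings, pseudocounts, filters and variance models, array weights, each array left out and averaging all probe sets of a gene. That average takes in probe sets under the signal limit. Leaving out control replicate 5 and dehydrated replicate 2 together was chosen after seeing the data.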

Additional observations from a re-analysis of the deposited data

Results flagged for a closer look

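Among 70 sets of 5 pools (35 tested genes in each group), 4 held a pool that stood apart from the others of its group by Dixon's criterion, and chance flags about 1 in 20 such sets. Kcnd1 was low in dehydrated replicate 2, at 65.1 against 86.2 to 94.6 in the other dehydrated pools. Kcns3 was low in the same pool, at 22.7 against 32 to 36.2. Kcnh2 was high in dehydrated replicate 4, at 72.2 against 46.3 to 52.6. Kcnk4 was low in control replicate 5, at 22.2 against 35.1 to 39.3.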

How the results depend on the processing

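The count of potassium channel and HCN genes past the threshold was 0 under each of the 21 settings tried in limma, including each array left out and control replicate 5 and dehydrated replicate 2 left out together, while the count over all probe sets ran from 45 without the variance trend to 289 with both arrays left out, against 108. The number at an unadjusted p under 0.05, 7 as reported, was 3 when all probe sets of a gene were averaged, where 32 channel genes were tested, and 5 to 8 with each array left out. Of the other channel and partner genes 0 passed under any setting, and 0 of the role groups held a gene that passed. The lowest adjusted p was 0.0686 for Kcnip1 without those 2 arrays and 0.0808 for Kcnj6 with array weights. Over all settings the log2 difference ran from -0.32 to -0.15 for Kcnj6, from 0.16 to 0.27 for Kcnip4, from 0.18 to 0.39 for Kcnip1 and from -0.55 to -0.19 for Kcnt1. The 0.39 of Kcnip1 is the mean over its probe sets, which takes in an untested one at a mean signal of 2.58 (log2 0.87 without the filter). Under the other settings Kcnip1 reached 0.29. The sign turned for another tested probe set of Kcnj6 (0.10) and another of Kcnt1 (0.066), and for Kcna6 with the mean over its probe sets (0.19). That mean takes in Kcna6 probe sets under the signal limit, at mean signals of 6.73 (log2 0.57 without the filter) and 5.21 (log2 0.10). For Kcnj6 and Kcnt1 the cause was not tested. Of the 35 genes 22 kept their sign under all settings, though filters and variance models cannot turn the sign of a probe set. The median log2 difference of the channel genes ran from -0.08 to 0.01, and was above 0 only when all probe sets of a gene were averaged. With each array left out, the group difference of the log2 ratio of 3 prime to 5 prime signal was 0.07 to 0.22 (Gapdh) and 0.00 to 0.21 (beta-actin). No paired analysis was possible because the labels give no replicate numbers. Signals near the background, as in the 14 untested genes, limit what can be said of those genes.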
